A study of Mus musculus with 36 samples.

Results

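The 10 T-box genes examined here, Tbx1, Tbx2, Tbx3, Tbx4, Tbx5, Tbx6, Tbx15, Tbx18, Tbx20 and Tbx21, are those of the family whose main known roles lie outside the cortical lineage, in heart, limb, pharynx, somites, skin and lymphocytes. They were chosen by name and by that known biology, from 21911 protein-coding genes of the mouse genome build mm10, by a rule that uses no measured value, although earlier results of these data were known when they were chosen. For each gene the share of the promoter (the window from 2 kb before to 2 kb after the annotated start, the TSS) and of the gene body covered by enriched islands was computed, with the width of the island and the reads counted per kb of it. ChIP-seq libraries of H2AK119ub1, H3K27me3 and H3K36me2 came from hippocampus of mice at postnatal day 0 and from neurospheres, which are floating cultures of hippocampal neural progenitors from the same age, grown with FGF2 and EGF for 3 generations. The cKO mice (Kdm2bEmx1-delta-CxxC) lacked the exon for the CxxC zinc finger of KDM2B in cells that had expressed Emx1-Cre, a driver of the dorsal telencephalon, and the Ctrl mice were Kdm2bfl/+ or Kdm2bfl/fl. Cells of a hippocampus that never expressed Emx1-Cre, such as vessels and microglia, keep an intact gene in the cKO. Each mark, source and genotype had 2 libraries, 24 in all, and the labels do not say whether a library came from a single animal or a separate culture, so the spread between replicates may be partly technical. In bulk material, fewer cells that carry a mark and less of the mark per cell cannot be told apart.

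T-box proteins are transcription factors that bind DNA through the conserved T-box domain and set the identity of mesodermal, endodermal and lymphoid cell types. In cells that never use them, such genes are classical targets of Polycomb: PRC2 trimethylates histone H3 (H3K27me3) and PRC1 ubiquitylates histone H2A (H2AK119ub1), and both marks go with silence. KDM2B recruits a variant form of PRC1 to unmethylated CpG-rich DNA through its CxxC zinc finger, and its other activity removes methyl groups from H3K36, of which H3K36me2 is usually found over intergenic and active chromatin.

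Reads counted inside islands ranged from 987329 to 22021439 a library, and neurosphere libraries held more than hippocampus libraries for H3K27me3 (13195590 to 17025504 against 1681001 to 5525016). Hippocampus H2AK119ub1 replicate 1 of either genotype was shallow, with 45.7 Mb (Ctrl) and 37.3 Mb (cKO) covered against 157 Mb and 247 Mb in replicate 2. The neurosphere H3K36me2 library cKO replicate 1 stood apart, with 148994 islands against 93595 to 110129 in the other 3. Its cKO replicate 2 was the shallowest of that set, with 10587042 counts in islands against 19827572 to 22021439 in the others. The promoter of Kdm2b, the targeted gene, was free of H3K27me3 islands throughout, and islands do not show the deleted exon, so this does not check the genotype. Promoters of markers of every cell (Actb, Gapdh and Eef1a1) were likewise free of H3K27me3 in all 8 libraries, and Foxc1, a gene of the meninges, had one in all 8. Of 5 telencephalic progenitor markers, an H3K27me3 island was present in all 4 hippocampus libraries for 1 (Pax6) and in all 4 neurosphere libraries for 0. Of 3 neuronal markers it was present in all 4 for 0 in either source, and of 6 markers of blood, vessel and meningeal cells for 2 in each. Outside an island the count is unknown, so 0% means that no island was called.

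The genes lie on 6 chromosomes, and 3 of them share chromosome 11. Tbx1 (ENSMUSG00000009097.10) spans chr16:18580979-18590671 on the minus strand, Tbx15 (ENSMUSG00000027868.11) chr3:99240381-99354259 on the plus strand and Tbx6 (ENSMUSG00000030699.16) chr7:126781483-126785560 on the plus strand. Tbx2 (ENSMUSG00000000093.6) at chr11:85832551-85841948 and Tbx4 (ENSMUSG00000000094.12) at chr11:85886422-85916097, both on the plus strand, have start sites 53.9 kb apart, and Tbx3 and Tbx5 are neighbours on chromosome 5. Tbx21 (ENSMUSG00000001444.2) lies at chr11:97098071-97115331, Tbx18 (ENSMUSG00000032419.8) at chr9:87702800-87731260 and Tbx20 (ENSMUSG00000031965.15) at chr9:24718138-24774303, all on the minus strand.

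The DNA just upstream of the start site shows how unlike these promoters are. RefSeq promoter sequences were found for 6 of the 10 genes, and the entry of Tbx4 began 10343 bp downstream of the TSS used here. Printed here are the 250 bases before the TSS on the coding strand (GRCm38.p6), with every CG dinucleotide in capitals, for Tbx20, with most CpG of the matched members, Tbx21, Tbx18 and Tbx1, all with H3K27me3 in every library, and for Tbx6, with H3K27me3 in none. The windows are chr9:24774304-24774553 (minus strand) for Tbx20, chr11:97115332-97115581 (minus) for Tbx21, chr9:87731261-87731510 (minus) for Tbx18, chr16:18590672-18590921 (minus) for Tbx1 and chr7:126781233-126781482 (plus) for Tbx6.
Tbx20: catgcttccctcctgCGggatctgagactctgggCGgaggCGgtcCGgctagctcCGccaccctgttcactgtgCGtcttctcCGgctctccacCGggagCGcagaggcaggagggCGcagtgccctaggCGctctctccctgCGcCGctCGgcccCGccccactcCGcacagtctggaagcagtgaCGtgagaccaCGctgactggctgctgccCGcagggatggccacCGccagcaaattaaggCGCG
Tbx21: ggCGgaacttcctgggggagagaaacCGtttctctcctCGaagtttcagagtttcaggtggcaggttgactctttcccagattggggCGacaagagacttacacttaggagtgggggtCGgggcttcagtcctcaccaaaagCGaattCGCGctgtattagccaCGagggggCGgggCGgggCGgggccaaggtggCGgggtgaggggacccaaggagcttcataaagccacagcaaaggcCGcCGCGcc
Tbx18: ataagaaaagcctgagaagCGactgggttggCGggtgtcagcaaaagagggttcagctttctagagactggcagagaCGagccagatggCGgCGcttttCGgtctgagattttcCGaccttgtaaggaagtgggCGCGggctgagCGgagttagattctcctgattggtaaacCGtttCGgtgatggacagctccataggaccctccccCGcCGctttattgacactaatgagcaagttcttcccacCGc
Tbx1: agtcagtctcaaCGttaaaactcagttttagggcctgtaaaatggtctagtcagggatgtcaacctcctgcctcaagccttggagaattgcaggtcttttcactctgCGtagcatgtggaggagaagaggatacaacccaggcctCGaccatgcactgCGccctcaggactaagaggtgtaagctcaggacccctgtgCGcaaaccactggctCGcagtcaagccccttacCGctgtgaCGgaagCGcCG
Tbx6: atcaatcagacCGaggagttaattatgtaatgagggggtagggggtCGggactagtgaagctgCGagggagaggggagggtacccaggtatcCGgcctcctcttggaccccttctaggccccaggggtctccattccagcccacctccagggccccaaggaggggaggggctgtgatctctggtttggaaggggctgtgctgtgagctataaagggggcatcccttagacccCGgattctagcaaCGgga

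Tbx20 held 22 CpG in these 250 bases, Tbx21 held 16, Tbx18 held 15 and Tbx1 held 10, while Tbx6 held 6, which is the median of the table of 32851 promoters. At least 10 CpG were found in 37.8% of that table. The entry of Tbx4, inside the stretch that H3K27me3 islands covered in all 8 libraries, also held 6. A second entry of Tbx1, 1772 bp from the TSS used here, held 17. Over 1 kb around the TSS, 6 members were CpG-rich (GC above 50%, and CpG above 0.6 of the number that the base composition predicts), namely Tbx1, Tbx2, Tbx3, Tbx18, Tbx20 and Tbx21, where 44.4% of all promoters were. Tbx6 had the lowest such CpG ratio of the 10, at 0.33, and 80 CpG in its 4 kb window, against a median of 137 over the members and 86 over all promoters. Tbx15 had the next lowest ratio, at 0.36. The start of its principal annotated transcript lay 13379 bp from the TSS used here, and that of Tbx1 lay 3702 bp away. The ratio was not computed at those starts. The core of the T-box binding element, TCACACCT on either strand, was present in 1.28% of the 300-base promoters of the table and in 0 of the 7 entries that belong to members.

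H3K27me3 covered the promoters of 9 of the 10 genes in all 8 libraries of the mark, and Tbx6 in none. Over all protein-coding promoters 5.76% had an island in all 8, and 6.85% of the CpG-rich ones did. In hippocampus the promoter share was 100% in every library for all 9, with no spread between replicates. Neurospheres gave 100% in 32 of 36 cases, the exceptions being Tbx4 and Tbx5. Tbx4, a gene of hindlimb and lung, was covered over 65% and 70% in Ctrl and 65% and 100% in cKO neurospheres. Tbx5, a gene of forelimb and heart mutated in Holt-Oram syndrome, was covered over 100% and 91.7% in Ctrl and 100% in both cKO. The remaining 7 were thus covered from end to end in all 8 libraries, a state found for 1.73% of all promoters and 2.54% of CpG-rich ones.

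**Figure D1:**
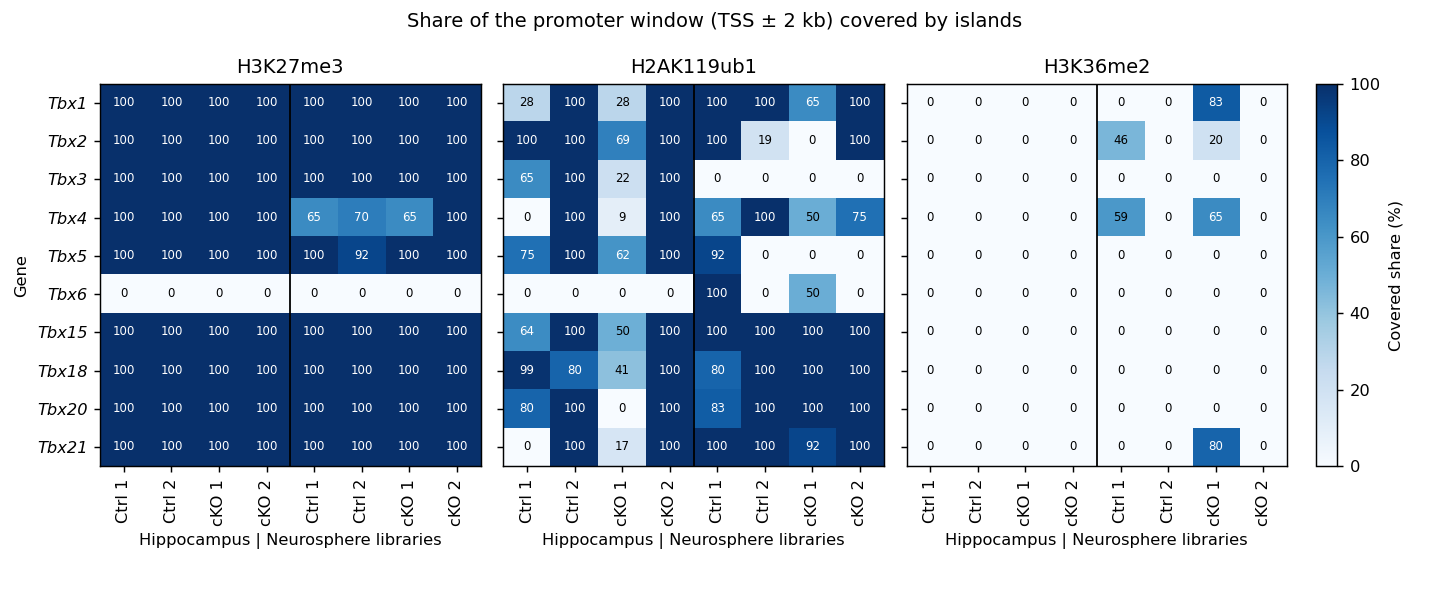
Share of the promoter window (TSS ± 2 kb) covered by islands, in percent, for each of the 10 genes (rows) in each library (columns, hippocampus left and neurosphere right of the line) for H3K27me3, H2AK119ub1 and H3K36me2. H3K27me3 fills the window of 7 genes in all 8 libraries, covers 65% or more at Tbx4 and Tbx5 and is at 0% at Tbx6, H2AK119ub1 is missing at Tbx3 in all 4 neurosphere libraries, and H3K36me2 appears only in 2 neurosphere libraries.

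The H3K27me3 domains differed in extent among the genes. The island over the promoter was 6.8 to 90.8 kb wide in hippocampus and 8.2 to 75.4 kb in neurospheres. Tbx15, which patterns skin pigment and skeleton, had the longest stretch common to all 8 libraries, 38.2 kb (chr3:99231201-99269400), which began 9.18 kb before the TSS. Next came Tbx2 with 18 kb, Tbx5 with 15.8 kb, Tbx1 with 15 kb, Tbx20 with 14.6 kb, Tbx4 with 11.8 kb and Tbx3 with 10.8 kb. The shortest belonged to Tbx18 (7.8 kb) and Tbx21 (6.4 kb), the latter encoding T-bet, the factor of type 1 helper T cells. Tbx3 had a core of 43.2 kb over the hippocampus libraries alone, and its 10.8 kb in neurospheres was set by Ctrl replicate 2, where the island was 10.8 kb wide against 58.2, 37.8 and 43.8 kb in the other 3.

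**Figure D2:**
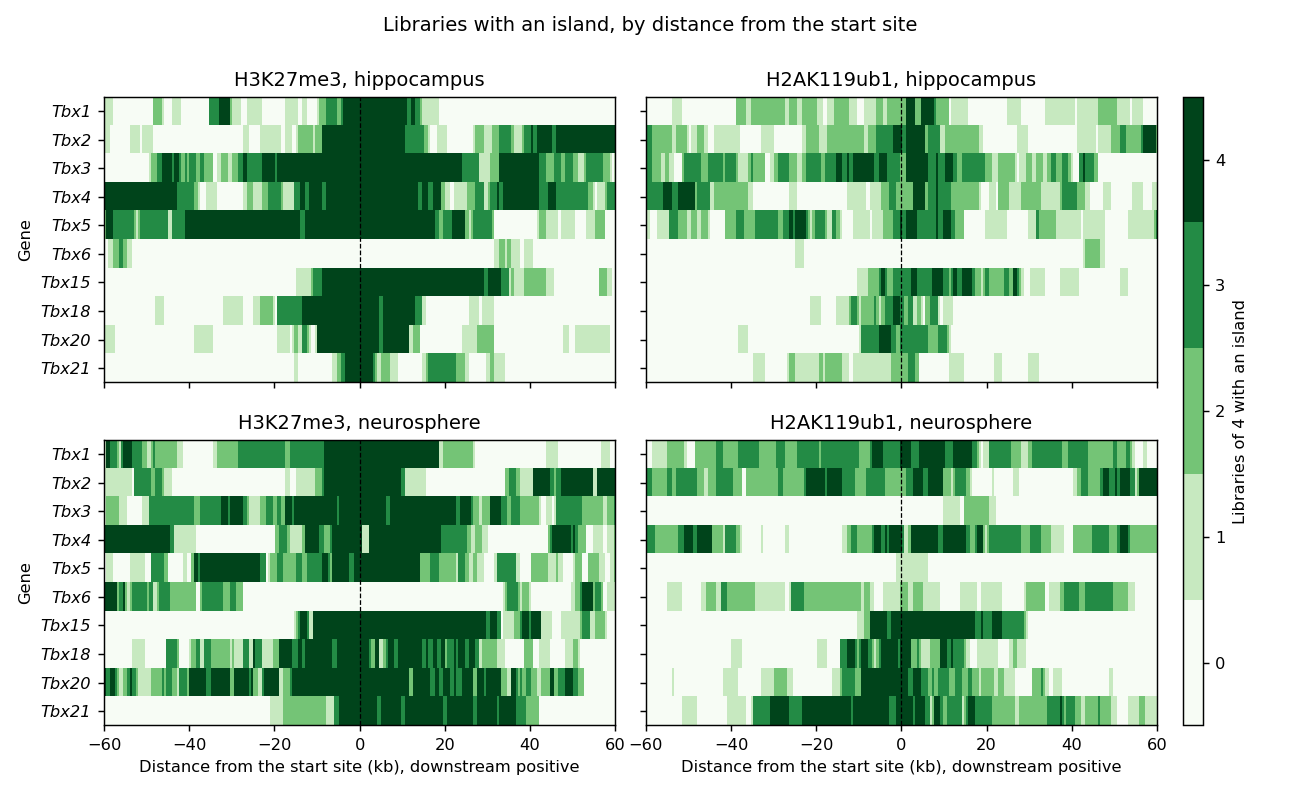
Number of libraries, out of 4, with an island at each distance from the TSS (x axis, kb, downstream positive; bins of 0.5 kb) for H3K27me3 (left) and H2AK119ub1 (right) in hippocampus (top) and neurospheres (bottom), 1 row per gene. H3K27me3 blocks surround the TSS of all genes but Tbx6, while the H2AK119ub1 rows of Tbx3 and Tbx5 are nearly empty in neurospheres.

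Whole gene bodies were marked for the shortest of the 9 genes and parts of the body for the longer ones. Tbx1 and Tbx2, each under 10 kb, were covered over 100% of the body in all 8 libraries. Tbx15, at 114 kb, was covered over 28.1% to 43.1% in hippocampus and 32.2% to 48.0% in neurospheres. Tbx20, essential for the heart, was covered over 25.8% to 33.3% of its 56.2 kb in hippocampus and 57.5% to 93.1% in neurospheres, with no overlap between the sources. Tbx18, of the epicardium and somites, went from 45.2% to 57.1% in hippocampus up to 75.4% to 100% in neurospheres, and Tbx21 from 19.3% to 65.2% up to 93.0% to 100%. Of the 1261 genes with a promoter island in all 8 libraries, 30.4% were likewise higher in body coverage in all neurosphere libraries and 2.06% lower, so 3 of 9 members is near the background. No such separation was seen for Tbx5, with 39.8% to 65.7% of the body in hippocampus and 32.2% to 69.5% in neurospheres. More of the genome was covered by H3K27me3 islands in neurospheres (268 to 321 Mb) than in hippocampus (54.9 to 160 Mb), and the part of that difference in these values was not tested.

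The read density of the H3K27me3 islands was above the median promoter in all 72 cases, the lowest being Tbx21 in neurosphere cKO replicate 2, at 1.14 times the median of that library. Tbx15 stood at or near the top, at 1.84, 2.14, 1.62 and 2.74 times the median in hippocampus (Ctrl replicates 1 and 2, then cKO replicates 1 and 2) and 3.13, 3.11, 2.87 and 3.48 times in neurospheres. It exceeded 97.5% to 99.5% of the marked promoters of each library. Tbx18 reached 2.86 and 3.90 times in Ctrl and 2.50 and 2.16 times in cKO neurospheres. Tbx21 had the lowest density of the 9 in 7 of the 8 libraries, all but neurosphere Ctrl replicate 1, and lay above 68.5% to 91.9% of marked promoters. Relative to the median, Tbx15 was higher in all 4 neurosphere libraries than in all 4 hippocampus libraries, as were 16.7% of the 1261 promoters marked in all 8. In counts per kb itself, Tbx15, Tbx18 and Tbx20 were higher in all neurosphere libraries, as were 41.2%. The median log2 ratio of island width, neurospheres over hippocampus, was -0.04 over the members and 0.75 over these promoters, and only Tbx20 separated the sources in width (wider in neurospheres, as were 30.9%).

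Tbx6, which directs paraxial mesoderm towards somites, was the exception for H3K27me3 and for H2AK119ub1 in hippocampus. It had no H3K27me3 island over the promoter or body in any library, and the nearest one lay 27.3 to 57.3 kb away. H2AK119ub1 was not called there in hippocampus. In neurospheres it covered 100% and 0% of the promoter in Ctrl and 50% and 0% in cKO, so each genotype had 1 library with and 1 without an island. H3K36me2 was absent from its promoter in all 8 libraries of that mark, as it was at Tbx3, Tbx5, Tbx15, Tbx18 and Tbx20. Each of the other 9 had an H2AK119ub1 promoter island in at least 3 of the 4 hippocampus libraries.

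H2AK119ub1 was found at the same promoters but less evenly. Its promoter share, averaged over the 10 genes, was 69.6% ± 26.1 (SD, n = 2) in Ctrl and 59.9% ± 42.6 (n = 2) in cKO hippocampus, and 71.9% ± 14.2 (n = 2) and 61.6% ± 8.36 (n = 2) in neurospheres. An island was present in all 4 hippocampus libraries for 6 genes (Tbx1, Tbx2, Tbx3, Tbx5, Tbx15 and Tbx18) and in all 4 neurosphere libraries for 6 (Tbx1, Tbx4, Tbx15, Tbx18, Tbx20 and Tbx21), where 1.59% and 6.72% of all promoters had one. Only Tbx1, Tbx15 and Tbx18 were in both sets. The spread went with depth in hippocampus: the mean share was 51.1% and 29.8% in the shallow replicate 1 libraries of Ctrl and cKO, against 88% and 90% in replicate 2. H3K27me3 exceeded H2AK119ub1 by 22.9 points on average over the 10 genes. No gene passed an adjusted p of 0.05 in the exact permutation test of the marks within source and genotype, nor did any of the 14289 promoters tested (0%). No member had H3K27me3 above, or below, H2AK119ub1 without overlap in all 4 combinations of source and genotype, where 0.679% and 0.021% of promoters did. Tbx3, at 64.2 points, had the smallest exact permutation p (0.0139, two-sided, adjusted p = 0.244) and Tbx5 was the only other member with an unadjusted p under 0.05 (45.4 points, exact permutation p = 0.0278, adjusted p = 0.300).

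Tbx3 and Tbx5 had H2AK119ub1 islands in hippocampus and few in neurospheres, with H3K27me3 islands in both. Both were singled out after their values were seen. They lie side by side on chromosome 5, with start sites 162 kb apart: Tbx3 (ENSMUSG00000018604.18, 119670669 to 119684724, plus strand), a repressor of limb, mammary gland and the cardiac conduction system, and Tbx5 (ENSMUSG00000018263.11, 119832668 to 119885219, plus strand). For Tbx3, H2AK119ub1 covered 65% and 100% of the promoter in Ctrl and 21.7% and 100% in cKO hippocampus, and 0% in all 4 neurosphere libraries. The sources did not overlap, and the difference was -71.7 points, with an exact permutation p of 0.0556 (two-sided, labels of source permuted within genotype), the smallest that these 8 libraries can give, and an adjusted p of 0.847 over all promoters. Leaving out any library kept the difference between -88.3 and -62.2 points. Shares lower in neurospheres without overlap were found for 0.114% of the 11409 promoters with an H2AK119ub1 island and higher ones for 3.89%, and Tbx3 was the only member in either class. For H3K27me3 no member separated the sources in coverage (13.6% of promoters higher and 2.91% lower in neurospheres).

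For Tbx5 the hippocampus shares were 75% and 100% in Ctrl and 61.7% and 100% in cKO. Its neurosphere shares were 91.7% and 0% in Ctrl and 0% in both cKO, so the sources overlapped through Ctrl replicate 1, the deepest H2AK119ub1 library (difference -61.2 points, neurospheres minus hippocampus, exact permutation p = 0.111, adjusted p = 0.847). In neurospheres the nearest H2AK119ub1 island to the Tbx3 TSS was 9.53 kb, 578 kb, 436 kb and 14.3 kb away. In the 4 H3K27me3 libraries of neurospheres the whole Tbx3 promoter was covered, with islands of 10.8 to 58.2 kb. Of the 348 promoters with H2AK119ub1 in all 4 hippocampus libraries, 2.59% had none in any neurosphere library. Of the 233 that also had H3K27me3 in all 8, the share was 1.29%, which is 3 promoters: Tfap2d, Tbx3 and Bmp4. Counts in islands of this mark were 5025115 to 17734396 in the neurosphere libraries and 987329 to 6799122 in the hippocampus libraries.

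Tbx21 had a higher mean H2AK119ub1 promoter share in neurospheres, but the sources overlapped (43.8 points, exact permutation p = 0.5, adjusted p = 0.944). Tbx1, Tbx15, Tbx18 and Tbx20 also had higher mean shares in neurospheres (exact permutation p = 0.5 each). The low hippocampus shares of Tbx21 were in the shallow replicate 1 libraries. Its promoter was covered over 0% and 100% in Ctrl and 16.8% and 100% in cKO hippocampus, and over 100%, 100%, 91.8% and 100% in neurospheres. Across the merged region of islands around it (chr11:97065001-97150800), hippocampus had 39 and 371 counts (Ctrl) and 97 and 977 counts (cKO), on 1.4, 14, 3.4 and 36.6 kb of called island. In neurospheres they were 5352, 2530, 1603 and 3191 counts on 82.8, 58, 45.2 and 73.4 kb. The sources did not overlap in counts, in covered length or in density (26.5 to 28.5 counts per kb in hippocampus and 35.5 to 64.6 in neurospheres). Of the 1555 regions, 25.9% were higher in all neurosphere libraries in counts, 13.1% in covered length and 78.4% in density. With the quasi-likelihood test of edgeR the log2 fold change was 2.12 ± 0.47 (SE) with an adjusted p of 0.00883, and it was the only one of 7 members tested to pass, where 20.5% of the 1555 regions did. With only islands of at least 2 kb kept, the 1.4 kb in hippocampus Ctrl replicate 1 dropped out and 0 members passed.

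H3K36me2 islands were rare at these promoters. No promoter of the 10 had an island in any of the 4 hippocampus libraries, as was true of 87.5% of all promoters. These libraries held 3109819 to 4504325 counts in islands, against 10587042 to 22021439 in neurospheres. In neurospheres Ctrl replicate 1 had islands over Tbx2 (46.2%) and Tbx4 (59.5%), and cKO replicate 1 had them over Tbx1 (83.2%), Tbx2 (20%), Tbx4 (65%) and Tbx21 (80%). The replicate 2 libraries of both genotypes had none, so each group held 1 library with and 1 without an island at these genes. Of these libraries, cKO replicate 1 is the one that stood apart. The shallowest was cKO replicate 2, with 30.3 counts per kb of island against 44.3 to 55.5 in the others, and the part of depth was not tested. Gene bodies held more of the mark at Tbx4, which was covered over 67.7% and 40.8% in Ctrl and 80.5% and 6.74% in cKO neurospheres, and at Tbx1 (77.3%), Tbx2 (69.7%) and Tbx21 (48.3%) in neurosphere cKO replicate 1. In hippocampus the body was covered over 6.74% for Tbx4 in cKO replicate 1 and over 4.95% for Tbx5 in Ctrl replicate 2, and over 0% in all other cases. Among the 10 genes, Tbx3, Tbx5, Tbx6, Tbx15, Tbx18 and Tbx20 had no H3K36me2 promoter island in any of the 8 libraries, as did 49.2% of all promoters. No member separated the sources for this mark, where 6.79% of promoters were higher and 0.0719% lower in neurospheres.

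H3K27me3 covered more of the promoter than H3K36me2 for 9 of 9 genes with an island of either mark, by 71.9 to 100 points, and by 84.2 points averaged over all 10. All 9 passed the exact permutation test within source and genotype after adjustment over 16135 promoters. In hippocampus the labels name separate inputs for H3K36me2, so mark and a possible difference in preparation cannot be told apart there. Tbx4 had a p of 0.00309 (exact permutation, adjusted p = 0.0424), and the other 8 reached 0.00154, the smallest the permutations can give (adjusted p = 0.0225). Higher H3K27me3 by this test was called for 10.1% of all promoters with an island of either mark and lower for 0.762%. Without any overlap, 8 members were higher, all but Tbx4, where 6.69% of promoters were higher and 0.186% lower. With replicates of the same number paired as a block and the signs of 8 pairs flipped, the smallest exact permutation p was 0.00781 (adjusted p = 0.110) and 0 members passed.

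Between the sources, 5 of the 9 members in merged H3K27me3 regions called in all 8 libraries passed the edgeR test (FDR under 0.05, genotype held in the fit), where 42.5% of the 2373 regions did, 21.3% higher and 21.2% lower in neurospheres. This share of members is near the share of all regions. Tbx3 and Tbx5 shared a region of 244 kb (chr5:119619801-119864000), so 2 of the 5 members rest on a single test. It held 2074 and 3820 CPM (counts scaled to the total inside the islands of each library) in Ctrl and 2324 and 2677 in cKO hippocampus, against 674 and 719 in Ctrl and 737 and 468 in cKO neurospheres. The log2 fold change was -1.55 ± 0.18 (SE, adjusted p = 0.000235 by edgeR). The covered length in the region was 217, 140, 211 and 225 kb in hippocampus and 172, 179, 178 and 94.8 kb in neurospheres, and the density was 49.0, 45.9, 58.2 and 65.9 against 66.6, 56.4, 54.5 and 66.7 counts per kb. In these raw counts per kb, not corrected for depth, the sources overlapped. The median density of marked promoters was itself 29.6 to 43.2 counts per kb in hippocampus and 39.4 to 56.7 in neurospheres. The fold change is relative to the other regions of each library.

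Tbx2 and Tbx4, 53.9 kb apart on chromosome 11, were also lower relative to the other regions. Tbx4 had 653 and 1060 CPM in Ctrl and 704 and 746 in cKO hippocampus, against 229, 207, 210 and 179 in neurospheres, on 44.4 to 81.4 kb and 48.2 to 53.8 kb of island (log2 fold change -1.42 ± 0.16, adjusted p = 0.000235 by edgeR). Its density was 40.1 to 53.2 counts per kb in hippocampus and 50.2 to 78.1 in neurospheres. Tbx2, a repressor related to Tbx3, had 265 and 744 in Ctrl and 251 and 489 in cKO hippocampus, against 184, 123, 103 and 99.8 CPM in neurospheres, on 21 to 31.4 kb and 18 to 30 kb (log2 fold change -1.25 ± 0.29, adjusted p = 0.00752 by edgeR). Here the density was 50.4 to 86.0 counts per kb in hippocampus and 70.6 to 104 in neurospheres.

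Tbx20 was called higher in neurospheres (log2 fold change 0.71 ± 0.25, adjusted p = 0.0454 by edgeR), but its CPM overlapped, at 311, 659, 339 and 369 in hippocampus and 427, 385, 453 and 631 in neurospheres. The covered length did not overlap, with 24.4 to 35.4 kb in hippocampus and 82.8 to 133 kb in neurospheres, as was true of 42% of the regions in this direction. This call was lost with DESeq2 size factors (adjusted p = 0.0542) and in 7 of the 8 fits without 1 library, all but that without hippocampus Ctrl replicate 2, with log2 fold changes of 0.38 to 0.84. Tbx21 had a log2 fold change of 0.67 ± 0.25 (adjusted p = 0.0553 by edgeR). Tbx15 (-0.38), Tbx1 (0.08) and Tbx18 (0.00) had adjusted p of 0.203, 0.856 and 0.996 by edgeR on the log2 scale.

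**Figure D3:**
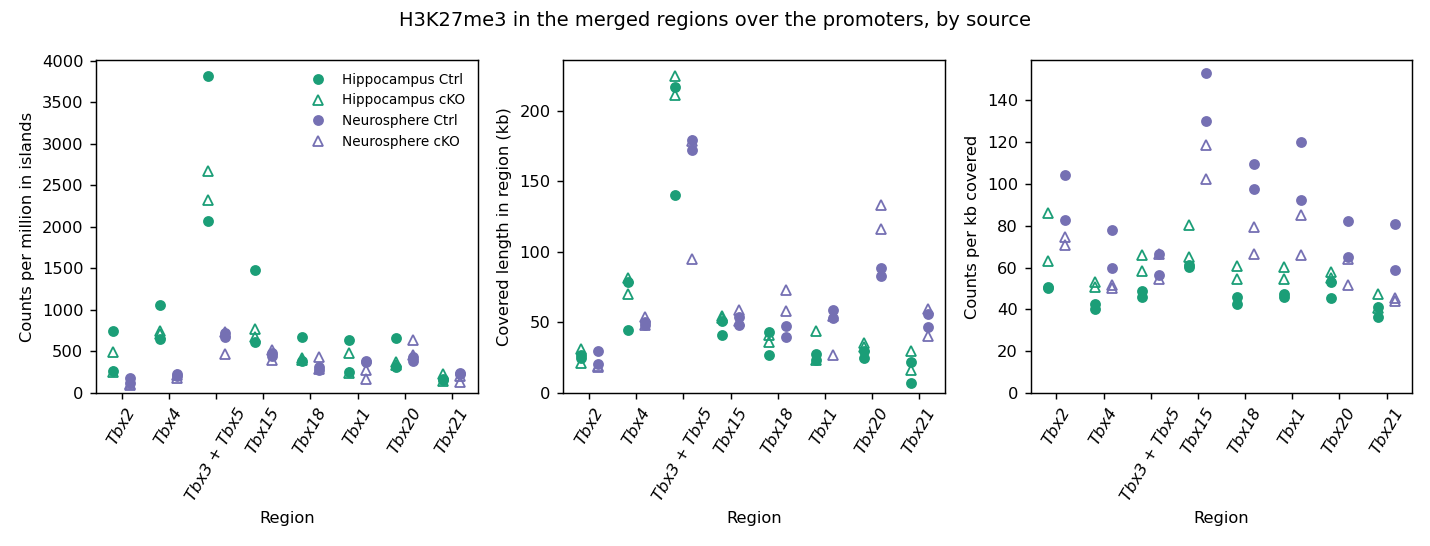
H3K27me3 in the merged regions over the members, 1 point per library, as CPM of the counts in islands (left), covered length in kb (middle) and counts per kb covered (right), with green for hippocampus, purple for neurospheres, filled circles for Ctrl and open triangles for cKO. The CPM of Tbx2, Tbx4 and the shared Tbx3 and Tbx5 region lie lower in all neurosphere libraries, while their raw counts per kb, not corrected for depth, overlap.

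The main comparison of the design was the effect of the CxxC deletion. Promoter coverage of the 10 genes gave no difference without overlap between genotypes for any mark or source, where the share of all promoters lay between 1.7% and 13.3% for each direction (hippocampus H3K27me3 11.8% higher and 2.58% lower, neurosphere H3K27me3 8.54% and 13.3%, hippocampus H2AK119ub1 2.04% and 1.7%, neurosphere H2AK119ub1 4.41% and 7.79%, hippocampus H3K36me2 7.53% and 4.18%, neurosphere H3K36me2 4.23% and 5.61%). Over both sources together no member separated the genotypes either, where 0.0438% higher and 0.219% lower were found for H2AK119ub1, 0.689% and 0.35% for H3K27me3, and 0.0719% and 0.117% for H3K36me2. With 2 libraries against 2 the smallest exact permutation p is 0.333, so no single gene could pass. For H3K27me3 the mean over the 10 genes was 90% in both genotypes of hippocampus, and 86.3% ± 0.24 (SD, n = 2) in Ctrl and 88.2% ± 2.47 (n = 2) in cKO neurospheres. A promoter that is covered in full cannot show a gain by this measure.

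The density of the H3K27me3 islands was compared between genotypes, although 2 libraries against 2 cannot reach an exact permutation p under 0.333. In raw counts per kb, not corrected for depth, it separated the genotypes, with opposite signs in the sources. In hippocampus it was higher in both cKO libraries than in both Ctrl libraries for 9 of 9 members. Tbx2, for example, had 53.5 and 50.4 counts per kb in Ctrl and 63.1 and 86.0 in cKO. In neurospheres it was lower in both cKO libraries for 8 of 9, all but Tbx3. Tbx18 had 162 and 183 counts per kb in Ctrl and 98.6 and 86.0 in cKO neurospheres, and Tbx5 had 110 and 110 against 60.3 and 72.1. Tbx3 had 83.3 and 117 in Ctrl and 90.5 and 73.4 in cKO.

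The same shifts held for most marked promoters, so they are not particular to these genes. In hippocampus 78.2% of 1832 promoters were higher without overlap, and in neurospheres 70.6% of 3396 were lower (among CpG-rich ones, 77.8% and 77%). The opposite signs were rare, at 0.218% lower in hippocampus and 0.559% higher in neurospheres (CpG-rich, 0.103% and 0.607%). The median log2 ratio of cKO over Ctrl was 0.44 for the members and 0.43 for all marked promoters in hippocampus, and -0.46 and -0.41 in neurospheres. Divided by the median density of marked promoters in the same library, no member separated the genotypes in hippocampus (20.5% of promoters were higher in cKO). In neurospheres 3 stayed lower in cKO, namely Tbx4, Tbx5 and Tbx18, where 27.2% of all marked promoters and 36.2% of CpG-rich ones were. Tbx18 went from 2.86 and 3.90 times the library median in Ctrl to 2.50 and 2.16 times in cKO, Tbx5 from 1.94 and 2.36 to 1.53 and 1.81, and Tbx4 from 1.67 and 1.61 to 1.60 and 1.35.

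**Figure D4:**
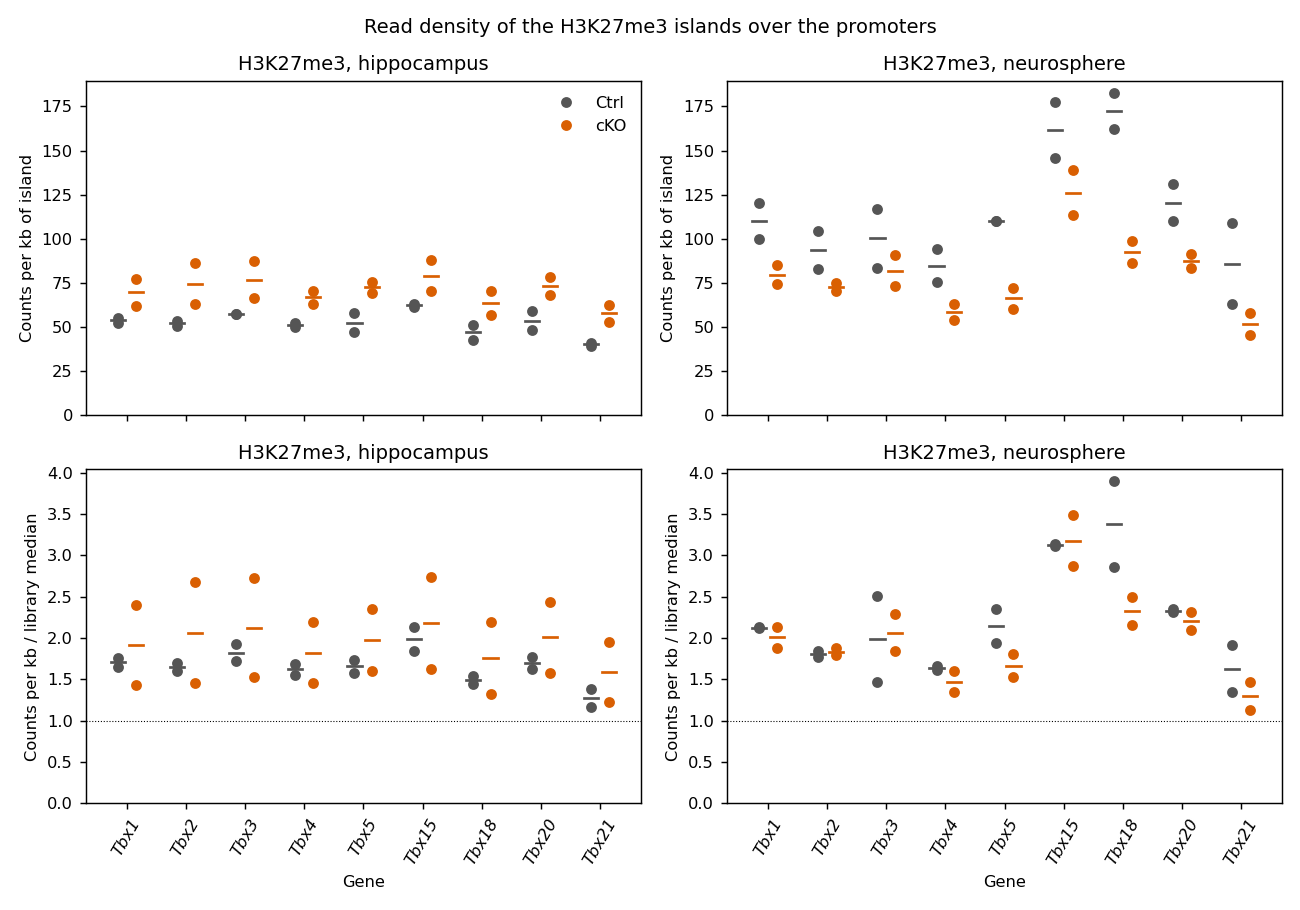
Read density of the H3K27me3 islands over the 9 marked promoters in hippocampus (left) and neurospheres (right), as counts per kb (top) and divided by the median of marked promoters in the same library (bottom), with 1 point per library and a bar for the mean of 2 (grey Ctrl, orange cKO). The genotypes separate in the upper panels for 9 genes in hippocampus and 8 in neurospheres, and in the lower panels for none and for Tbx4, Tbx5 and Tbx18.

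Island width did not follow density. In neurospheres the island over Tbx18 was 21.2 and 8.2 kb wide in Ctrl and 25 and 63.8 kb in cKO, and that over Tbx5 was 20.6 and 15.8 kb against 39.6 and 25.8 kb, wider in both cKO libraries, as were 28.9% of all marked promoters. Tbx1 went from 53 and 52 kb to 43.4 and 26.8 kb and Tbx2 from 30 and 20.8 kb to 19.2 and 18 kb, narrower in both, as were 18.3%. The other 5 members overlapped in width. For H2AK119ub1 in neurospheres, counts per kb were lower in both cKO libraries for 3 of 6 members (Tbx1, Tbx15 and Tbx20), where 66% of promoters and 70.5% of CpG-rich ones were, and higher for none, where 0.136% and 0.125% were. In hippocampus 0 of 6 separated, where 12.4% were higher and 1.15% were lower (CpG-rich, 9.78% and 1.33%).

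Counts summed over merged regions were then compared between genotypes with edgeR, and no member passed an FDR of 0.05 in any of the 6 fits of 1 mark and source, nor did any region (0%). Hippocampus H3K36me2 had no member region to test. At an unadjusted p under 0.05 there were 2 members, Tbx1 and Tbx2 in neurosphere H3K27me3, where 18.4% of regions were, and 0 in the other fits, where 1.09% to 3.53% were. The DESeq2 Wald test called 0 members, with 738 of 11262 regions called in that comparison. Tbx1, a gene of the pharyngeal arches lost in DiGeorge syndrome, held 6363 and 5458 counts in the Ctrl and 3582 and 2283 counts in the cKO neurospheres (log2 fold change -0.998 ± 0.29, adjusted p = 0.215 by edgeR). Tbx2 held 3134 and 1719 against 1355 and 1347 (-0.80 ± 0.23, adjusted p = 0.212 by edgeR). Tbx21 (-0.65), Tbx4 (-0.44), Tbx3 (-0.40), Tbx5 (-0.36) and Tbx15 (-0.26) had negative log2 fold changes, and Tbx20 (0.20) and Tbx18 (0.09) positive ones. In hippocampus H3K27me3 the 9 members had log2 fold changes of -0.49 to -0.04, with a median of -0.26 against -0.02 over all regions. Their raw counts per kb, not corrected for depth, were higher in cKO. Divided by the library median, the median log2 ratio of cKO over Ctrl was still 0.24 for the members and 0.21 for all marked promoters. No member separated the genotypes by that measure. Both density measures thus differed in sign from the fold changes, and the reason was not tested. For H2AK119ub1 the log2 fold changes ranged from -0.79 (Tbx20) to 0.68 (Tbx4) over 8 members in hippocampus and from -0.43 (Tbx20) to 0.03 (Tbx4) over 7 in neurospheres.

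The count of calls depended on 1 library. Without cKO replicate 1 of neurosphere H3K27me3, 6 of the 9 members passed, all lower in the remaining cKO library, where 17.5% of 16288 regions were called. They were Tbx1 (log2 fold change -1.60), Tbx21 (-1.28), Tbx2 (-1.07), Tbx3 (-0.94), Tbx5 (-0.89) and Tbx4 (-0.79), with adjusted p from 0.00877 to 0.0364 by edgeR. That fit has a single cKO library, whose spread is assumed to be that of the Ctrl libraries. In neurosphere H3K36me2, leaving out cKO replicate 1 made the lone member tested, Tbx2, pass with a log2 fold change of -3.03 by edgeR, where 6.5% of regions were called. Its counts were 4071 and 3312 (Ctrl) and 2910 and 310 (cKO), so the remaining cKO library was the low one. That library was also the shallowest for neurosphere H3K36me2, with 10587042 counts in islands. The difference of the genotype effect between the sources was tested as an interaction, and 0 members passed for any mark (0 at an unadjusted p under 0.05, and 0 with DESeq2). For Tbx2 H3K36me2 it passed only without neurosphere cKO replicate 1, where 2.35% of regions did.

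Other T-box genes were marked in part. Of 7 compared, Tbr1, Eomes, T, Tbx10, Tbx19, Tbx22 and Mga, only T, the founding member of the family, had an H3K27me3 promoter island in all 4 hippocampus libraries, and Tbr1, Eomes, T and Tbx10 had one in all 4 neurosphere libraries. Tbr1 and Eomes, which act in cortical neurons and intermediate progenitors, had none in hippocampus cKO replicate 1 and were covered over 63.2% and 100% in cKO replicate 2, while the 9 marked members were at 100% in both. In Ctrl hippocampus Tbr1 was covered over 63.2% and 38.2%, and Eomes over 100% and 80%. In neurospheres Eomes was at 100% in all 4 libraries and Tbr1 at 58.2% to 83.2%. Mga, which is broadly expressed, had no promoter island of any mark in any library. Whether the groups of genes differ was not tested.

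Partners and targets of T-box factors in heart, mesoderm and lymphocytes gave a mixed picture. Of 20 such genes, 11 had an H3K27me3 promoter island in all 4 hippocampus libraries and 13 in all 4 neurosphere libraries, and for H2AK119ub1 the numbers were 7 and 8. H3K36me2 was never present in all 4. Over all promoters, H3K27me3 islands in both libraries of a genotype were found for 10.5% (Ctrl) and 12.5% (cKO) in hippocampus. In neurospheres these shares were 23.9% and 18.3%. For H2AK119ub1 they were 4.69% and 3.25% in hippocampus, and 11.7% and 18.6% in neurospheres. The share with an island in all 4 can be no higher than either genotype's share. Fgf8, a growth factor of limb and pharynx, had an H3K27me3 promoter share of 100% in both Ctrl and of 42.1% and 0% in the cKO neurospheres. Mesp2, a segmentation gene, and Cxcr3, a chemokine receptor that T-bet activates, were at 0% in hippocampus and had means of 76.6% and 75% in neurospheres for the same mark. Both were at 100% in both Ctrl neurosphere libraries. In cKO neurospheres Mesp2 was at 93.15% and 13.15%, and Cxcr3 at 0% and 100%. Nppa, a natriuretic peptide gene that Tbx5 activates, had 0% H2AK119ub1 in hippocampus and a mean of 61.7% in neurospheres. These genes were named for the largest differences in coverage, which were not tested.

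By promoter share over all 24 libraries the members fell into groups. Tbx1 and Tbx21 were most alike, with a mean absolute difference of 2.91 points, followed by the 3 pairs among Tbx15, Tbx18 and Tbx20 at 3.42 to 3.44 points. Tbx3 and Tbx5 differed by 6.25 points. Tbx6 lay farthest from the mean of the 10, at 48.2 points, against 12.7 to 18.2 points for the rest. Outside the family the genes with the most similar pattern to that mean were Sfmbt2 (9.36 points), Adcyap1 (9.51), Bnc2 (9.55), Vgll2 (9.69) and Dmrt1 (9.78). These distances are descriptions over libraries that share depth and source.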

How the data were processed

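ChIP-seq of H2AK119ub1, H3K27me3 and H3K36me2 was analysed in 24 libraries, 2 for each mark, source and genotype. The 12 input libraries were not analysed here. In hippocampus, the labels name inputs for H3K36me2 apart from the other inputs, so these libraries may come from a separate preparation. According to the study's methods, the authors digested chromatin with MNase, sonicated it, split each lysate into an input and 3 precipitations, trimmed reads with cutadapt, aligned them to mm10 with Bowtie2 2.4.5, removed duplicates with samtools and called islands per library against input with SICER (window 200 bp, gap 600 bp, FDR 0.01; its version is not given in the sources used here). The deposited files hold, for each island, its position and the raw read count in it, not normalised by the authors. Reads outside islands are unknown, so differences in depth and calling change which regions have a value.

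From these files the covered share of each promoter (GENCODE vM21 start site ± 2 kb) and gene body, the island width and counts per kb were computed with Python 3.11.15 and numpy 2.4.6. Islands on chrM (no more than 0.0232% of any library's counts) were left out. Shares were compared with two-sided exact permutation tests of the labels within strata of the other factors, with Benjamini-Hochberg adjustment over all promoters with an island, in place of the adjustment over the members that had been planned. Islands of a mark were merged across libraries into regions with counts in every library compared, and their counts were fitted in edgeR 4.0.16 (quasi-likelihood F test, TMM, R 4.3.3) with FDR over all regions. Log2 fold changes are given ± SE. These steps were tested on simulated data. The simulated counts for edgeR had a fixed spread between libraries, so they do not show how the fits behave at the spread seen here. No molecular identifiers were used, so the spread between 2 libraries, and not a counting interval, is the error given. Nothing ties libraries to separate animals or cultures, so p-values measure the spread between these libraries.

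Alternatives were windows of 1 and 5 kb, islands of at least 2 kb, the densest 75% of islands, equal covered length, other annotated start sites, at least 50% of the window, a replicate block, DESeq2 1.42.0 (size factors and Wald test), regions with a mean of at least 50 counts and leaving out each library. Density relative to the library median was added after seeing the data. The members and gene lists were chosen with earlier results of these data known. Named were all 10 members, 7 other T-box genes, Kdm2b, the 4 of 20 partners and targets with the largest difference in coverage and the 5 genes most like the members. Tfap2d and Bmp4 were named after their values were seen. Replicate numbers were not shown to pair libraries.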

Additional observations from a re-analysis of the deposited data

Results flagged for a closer look

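For 8 of the 9 members with H3K27me3, raw counts per kb of the promoter island shifted in opposite directions in the sources. They were higher in both cKO than in both Ctrl libraries in hippocampus and lower in both in neurospheres. These counts were not corrected for depth. The log2 ratio of cKO over Ctrl in neurospheres minus that in hippocampus was -0.83 for Tbx1, -0.86 for Tbx2, -0.92 for Tbx4, -1.21 for Tbx5, -0.69 for Tbx15, -1.34 for Tbx18, -0.91 for Tbx20 and -1.21 for Tbx21. The exact permutation p of each difference was 0.0556, the smallest that the 36 splits can give, so none could pass 0.05. The same opposite signs were found for 67.6% of the 1261 promoters with an island in all 8 libraries, with a median difference of -0.95 over these promoters. Tbx3 had a difference of -0.69 (exact permutation p = 0.111), with overlapping genotypes in neurospheres.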

How the results depend on the processing

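Apart from leaving out libraries, 182 of the alternative values of the main comparisons were counted as unchanged, and 9 moved. A mean difference counted as unchanged within the replicate spread, and a count of members when it stayed close to its main value. That spread reached 35.3 points for hippocampus H2AK119ub1 and 26.3 points for H2AK119ub1 between sources, so large shifts there also counted as unchanged. Members with H2AK119ub1 in both Ctrl hippocampus libraries, for example, went from 7 to 6 at 50% of the window and counted as unchanged. The mean promoter share of the 10 genes, cKO minus Ctrl, went from -10.3 to 2.25 points for neurosphere H2AK119ub1 at equal covered length. With the 5 kb window it went from 0 to -0.98 (hippocampus H3K27me3) and from 0 to -0.54 (hippocampus H3K36me2), and neurosphere minus hippocampus H3K27me3 went from -2.71 to -0.16. Members with H2AK119ub1 in both cKO hippocampus libraries went from 8 to 2 when at least 50% of the window had to be covered. Relative to the library median, members separated by H3K27me3 density went from 9 to 0 in hippocampus and from 8 to 3 in neurospheres. With islands of at least 2 kb the H2AK119ub1 source call went from 1 to 0. Among 9 members, Tbx18 alone turned sign between sources, from 0.00 to -0.0069 (block), -0.012 (DESeq2 size factors), -0.0118 (Wald) and -0.079 (islands of at least 2 kb), all near 0. Tbx20 went to an FDR of 0.0542 with size factors, and Tbx21 passed with the Wald test (0.0294) and with islands of at least 2 kb (0.0494). The causes were not tested.

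Without 1 library, members with H3K36me2 islands in all remaining neurosphere libraries ranged from 0 to 2 (Ctrl) and 0 to 4 (cKO), members with lower neurosphere H2AK119ub1 density from 3 to 6, calls for genotype in neurospheres from 0 to 6 (H3K27me3) and 0 to 1 (H3K36me2), and H3K36me2 interaction calls from 0 to 1. The mean promoter share differences ranged from -39.8 to 20.4 points (hippocampus H2AK119ub1, cKO minus Ctrl), -20.3 to -0.29 (neurosphere H2AK119ub1), -5.29 to 19.5 (neurosphere H3K36me2) and, between sources, -13.0 to 17.1 (H2AK119ub1), so 3 of these 4 turned sign. Log2 fold changes that turned sign ranged from -0.19 to 0.18 (Tbx20, neurosphere genotype), -0.24 to 0.052 (Tbx18, neurosphere genotype), -0.15 to 0.11 (Tbx18, source) and -0.12 to 0.36 (Tbx1, source). All are H3K27me3 regions.

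Same-numbered libraries correlated in their deviations, over 2 pairs per set, at 0.327 (H2AK119ub1), 0.266 (H3K27me3) and 0.016 (H3K36me2) in hippocampus. In neurospheres the values were -0.322, -0.121 and 0.310. These values differ between sets and do not decide whether the numbers pair libraries. The labels do not state a pairing, so the block was used only as an alternative. With the replicate block, the H3K27me3 against H3K36me2 count went from 9 to 0. The smallest exact permutation p that 8 pairs can give, 0.00781, adjusted to 0.11 there, so no member could pass. For genotype, 9 hippocampus H3K27me3 regions passed with the block against 0, with 0 members. The source calls of members stayed at 5 (H3K27me3) and 1 (H2AK119ub1). Over all regions DESeq2 called 32, 3, 738, 20 and 83 for genotype where edgeR called 0 (neurosphere H2AK119ub1, hippocampus and neurosphere H3K27me3, hippocampus and neurosphere H3K36me2), 47 and 10 interactions against 0 (H3K27me3 and H3K36me2), and 1051 H3K36me2 regions against 501 for source. Shallow hippocampus libraries limit what H2AK119ub1 can show.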
